A study of Homo sapiens with 12 samples.

Results

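SOX9 and the long noncoding transcripts that lie beyond it on chromosome 17 were followed through 3 histone H3 marks in 4 related human colorectal cancer cell lines. The locus was taken as a 570-kb window of hg19, chr17:70080000-70650000. It holds SOX9 at chr17:70117161-70122561 and a run of H3K79me3 regions at chr17:70391562-70588799. All regions of the deposited tables that overlap the window were members, 241 of 244278. They comprise 22 of 36400 H3K4me3 regions, 9 of 50000 H3K27me3 intervals, 3 of which reach past the window, and 210 of 157878 H3K79me3 regions. Of the H3K4me3 regions, 5 lie within 5 kb of SOX9 and 17 elsewhere. Of the H3K79me3 regions, 6 lie within 5 kb of SOX9, 202 in the run and 2 just before it. The window and its run were chosen by where H3K79me3 counts of these same libraries form a run and differ between lines, so the values below are a description and carry no test.

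SOX9 is a transcription factor of the SOX family. In the intestine it is expressed in the cells at the base of the crypts, downstream of Wnt signalling, and it takes part in Paneth cell formation. It is also commonly expressed in colorectal tumours. H3K4me3 marks active promoters, and H3K27me3 is deposited by the Polycomb repressive complex. H3K79me3 is made by the methyltransferase DOT1L over the bodies of transcribed genes, usually most densely in their first part. The SOX9 gene stands in a large region poor in coding genes, and long noncoding RNA genes such as LINC00673 and LINC00511 lie on its downstream side.

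DLD1 is the parental colorectal cancer line and is described as epithelial. SA is a mesenchymal-like derivative obtained from soft agar colonies, and SPH is a mesenchymal-like derivative obtained from colonospheres. METS is an epithelial derivative obtained from a lung metastasis of a xenograft. All 4 lines were cultured with serum in McCoy's 5A medium, and no treatment or gene change is named. Whether a derivative is 1 clone or a pool is not given in the sources used here. Each line had 1 library per mark, so a difference between lines has no replicate check. The range in brackets after a fold is its exact 95% Clopper-Pearson interval. PCR copies were not marked, so such a range reflects the error of counting alone. Regions carry positions and no gene names, so epithelial and mesenchymal marker genes were not analysed here.

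Libraries held between 6722508 and 7753937 counts for H3K4me3, between 6165169 and 7521451 for H3K79me3, and between 15605814 and 20410151 for H3K27me3. Only a part of the H3K27me3 table was available, covering chromosomes 1 to 19. Levels are counts scaled to a library total of 1000000 (CPM). A level of 3 counts corresponds to at most 0.487 CPM in any library. No label names a batch. Over all H3K79me3 regions with a count, the median log2 ratio to DLD1 was -0.02 in SA, -0.11 in SPH and 0.08 in METS.

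The RefSeq table on GRCh38.p14 was used for names, order, length, strand and promoter sequence, and none of its positions were carried over to hg19. All 11 gene names looked up at the locus were found in it. In that order SOX9 is preceded by LINC02097 and followed, among those names, by LINC00673, LINC00511 and SLC39A11. LINC00673 is a long noncoding RNA gene of 189 kb on the minus strand, so its start is the end that lies away from SOX9. The run of H3K79me3 regions spans 197 kb and ends, on the side away from SOX9, beside a pair of strong H3K4me3 regions. The run is therefore placed at LINC00673 by order, rough length and orientation, not by position, because the hg19 regions carry no gene names. This placement is uncertain. The only H3K27me3 gene-body interval that encloses the run is 317.3 kb long, and no gene-body interval of 189 kb was seen there. The promoters of the next 2 noncoding genes after SOX9 are shown because the run ends at what would be the start of the first of them. They span 250 bases before to 50 bases after the gene start, are written 5′ to 3′ on the minus strand, and come from RefSeq on GRCh38.p14. The LINC00673 promoter lies at chr17:72592755-72593054 and the LINC00511 promoter at chr17:72640423-72640722. Capitals mark matches, on either strand, to GGGCGG or to ACAAT.

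LINC00673: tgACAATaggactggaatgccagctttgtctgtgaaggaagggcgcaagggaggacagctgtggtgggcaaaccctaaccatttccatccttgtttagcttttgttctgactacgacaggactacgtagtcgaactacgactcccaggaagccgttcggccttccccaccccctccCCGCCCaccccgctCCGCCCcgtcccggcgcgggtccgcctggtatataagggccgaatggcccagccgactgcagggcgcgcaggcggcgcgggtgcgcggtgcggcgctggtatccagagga

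LINC00511: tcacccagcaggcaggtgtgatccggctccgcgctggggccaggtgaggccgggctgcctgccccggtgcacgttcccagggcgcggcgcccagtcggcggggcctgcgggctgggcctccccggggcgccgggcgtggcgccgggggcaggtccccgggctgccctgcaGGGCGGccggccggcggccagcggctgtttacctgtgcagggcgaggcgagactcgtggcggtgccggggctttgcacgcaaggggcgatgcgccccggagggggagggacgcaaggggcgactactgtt

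The LINC00673 promoter holds 26 CpG dinucleotides at 63.3% GC, and the LINC00511 promoter holds 35 at 78.0% GC. Among 35116 promoters of the same length, these CpG counts stand at percentiles 69.9 and 85.9. In all, 5 motifs were searched on both strands. They were the TATA box as TATAAA, the CAAT box as CCAAT, the Sp1 box as GGGCGG, the TCF/LEF core as CTTTGAT and the SOX core as ACAAT. Searches did not exclude overlaps, and no overlapping matches occur among the printed capitals. GGGCGG occurs 2 times in LINC00673 and 1 time in LINC00511, and 45.0% of all promoters hold it. ACAAT occurs 1 time in LINC00673 and is held by 27.4% of all promoters. TATAAA (11.5% of all promoters), CCAAT (34.6%) and CTTTGAT (2.62%) have no match in either sequence. Only these exact strings were searched, so variants of a box were not counted and may be present. These are letter matches in 1 window and say nothing about binding.

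**Figure D1:**
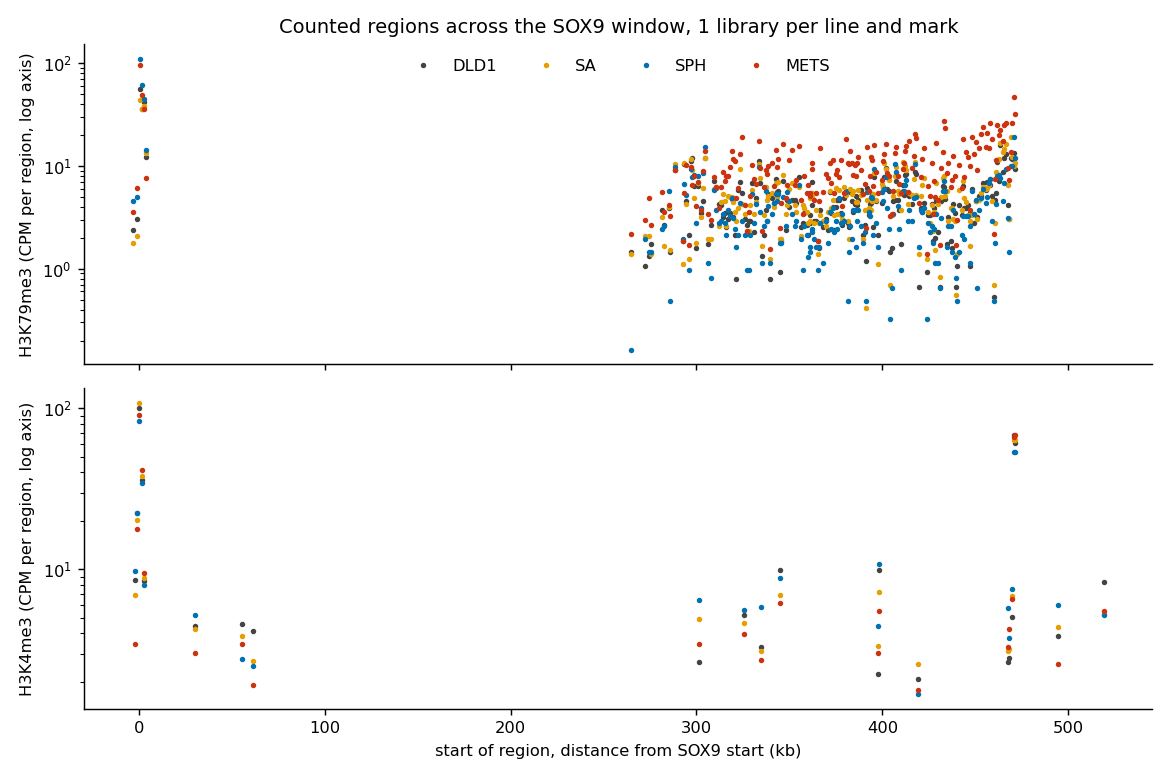
CPM per region on a log axis for H3K79me3 (upper panel) and H3K4me3 (lower panel), against the distance of each region from the SOX9 start in kb, with 1 point per line and region. SOX9 carries the strongest region of the window for both marks, and the 202 regions of the downstream run lie between 274 and 472 kb, where METS points lie above the others.

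At SOX9 the promoter mark was nearly level across the 4 lines. The strongest H3K4me3 region, chr17:70117509-70118038, starts inside the gene just after its start. It had 672 counts (DLD1), 839 (SA), 597 (SPH) and 667 (METS), that is 100.0, 108, 83.5 and 91.3 CPM. SA was the highest line and SPH the lowest, and the mean stood at percentile 98.4 of all H3K4me3 regions. Against DLD1 its level was 1.08-fold in SA (0.977 to 1.20), 0.835-fold in SPH (0.746 to 0.934) and 0.914-fold in METS (0.820 to 1.02). Strong H3K4me3 regions also tended to be slightly lower in SPH. In the strongest 1% by mean CPM (357 regions) the median log2 ratio to DLD1 was 0.05 in SA, -0.12 in SPH and 0.05 in METS. This SOX9 region, which is not among them, had 0.11, -0.26 and -0.13 after adding 0.5 CPM.

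The other 4 H3K4me3 regions of SOX9 were weaker. The region at chr17:70118887-70119308, further into the gene, had 241 counts (DLD1), 296 (SA), 245 (SPH) and 302 (METS). The region at chr17:70119886-70120313 had 57, 69, 57 and 69 counts in the same order. In both, METS had the highest CPM and SPH the lowest, within 1.15-fold of DLD1. Ahead of the gene, chr17:70116226-70116709 had 150, 158, 161 and 130 counts.

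The region furthest ahead of the gene, chr17:70115149-70115535, had 58 counts (DLD1), 54 (SA), 70 (SPH) and 25 (METS). METS was the low line here, 2.52-fold below DLD1 (1.55 to 4.20). It was the 1 region of the 22 in the window that passed 2-fold in METS, after adding 0.5 CPM to each value, against 5.11% of all H3K4me3 regions. In the same 22 regions, 0 passed in SA (2.69% of all regions) and 1 in SPH (7.07%). The 5 regions of SOX9 summed to 175 CPM (DLD1), 183 (SA), 158 (SPH) and 163 (METS). These sums were 1.04-fold of DLD1 in SA (0.964 to 1.13), 0.901-fold in SPH (0.830 to 0.979) and 0.932-fold in METS (0.859 to 1.01).

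H3K79me3 at SOX9 differed more, and chiefly at the beginning of the gene. The region at chr17:70117627-70118074, which overlaps the strongest H3K4me3 region, had 419 counts (DLD1), 320 (SA), 681 (SPH) and 609 (METS). Its levels were 55.7 CPM (DLD1), 44.0 (SA), 110 (SPH) and 94.7 (METS). SPH and METS were high and DLD1 and SA low, so the mesenchymal lines lay on opposite sides. SPH was 1.98-fold above DLD1 (1.75 to 2.24) and METS 1.70-fold (1.498 to 1.93), while SA stood at 0.790-fold (0.681 to 0.916). Its mean was at percentile 99.95 of all 157878 H3K79me3 regions.

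The next region, chr17:70118859-70119272, had 270 counts (DLD1), 259 (SA), 373 (SPH) and 312 (METS). SPH was 1.69-fold above DLD1 (1.44 to 1.98) and METS 1.35-fold (1.14 to 1.60). The order of the lines was the same as in the first region. Further on, chr17:70120199-70120597 had 314, 280, 273 and 232 counts, and no interval against DLD1 left out 1. Near the end of the gene, chr17:70121307-70121636 had 91, 97, 88 and 49 counts. METS was the lowest line there, at 0.630-fold of DLD1 (0.435 to 0.901).

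The share of H3K79me3 counts at the beginning of SOX9 was higher in SPH and METS than in DLD1 and SA. This split of the gene was chosen after its values were seen and is a description of 1 library per line. The first 2 regions inside the gene held 60.7% of the SOX9 counts in DLD1 (57.8 to 63.6) and 58.8% in SA (55.7 to 61.9). They held 71.5% in SPH (69.1 to 73.8) and 72.9% in METS (70.3 to 75.3), by exact Clopper-Pearson intervals. The last 2 regions held 35.7% (DLD1), 38.3% (SA), 24.5% (SPH) and 22.2% (METS). By counting error alone, DLD1 and SA overlapped, as did SPH and METS. Against DLD1 the first 2 regions together were 0.869-fold in SA, 1.87-fold in SPH and 1.56-fold in METS. The last 2 were 0.963-fold in SA, 1.09-fold in SPH and 0.811-fold in METS.

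**Figure D2:**
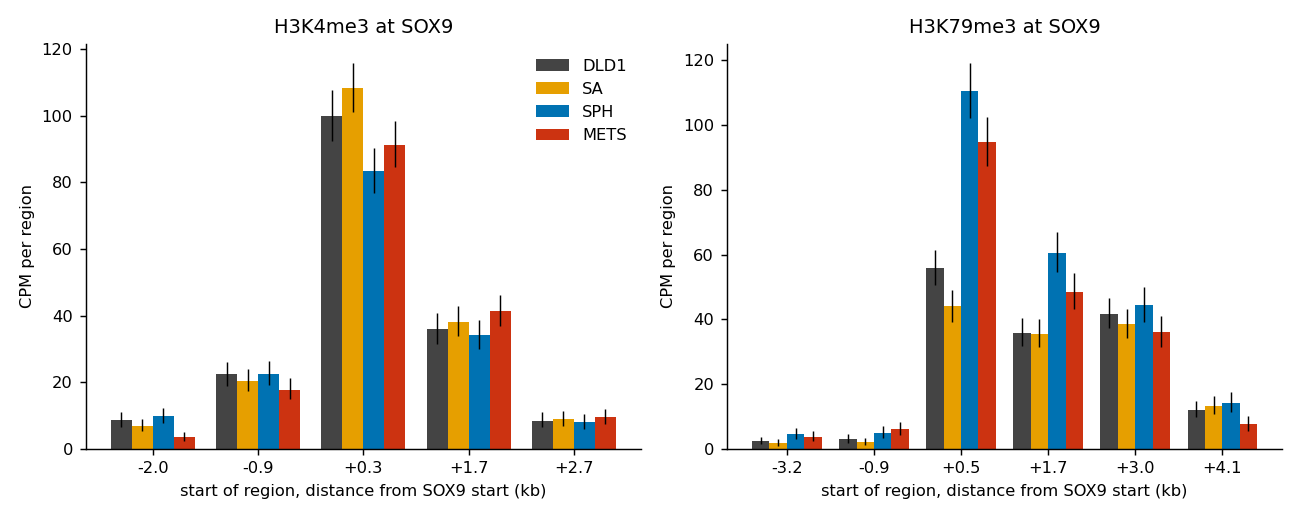
CPM per region at SOX9 for H3K4me3 (left, 5 regions) and H3K79me3 (right, 6 regions) in 1 library per line, ordered by distance of the region start from the SOX9 start in kb. Bars start at 0 and error bars are exact 95% Poisson intervals of the counts; in the first H3K79me3 region inside the gene SPH (110 CPM) and METS (94.7 CPM) stand above DLD1 (55.7 CPM) and SA (44.0 CPM), while the H3K4me3 bars lie closer together except in the first region, where METS is low (3.42 against 8.63 CPM in DLD1).

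Ahead of SOX9, H3K79me3 was low. The region at chr17:70113989-70114395 had 18 counts (DLD1), 13 (SA), 28 (SPH) and 23 (METS). The region at chr17:70116236-70116653 had 23, 15, 31 and 39 counts. Summed over all 6 regions, SOX9 had 151 CPM (DLD1), 135 (SA), 239 (SPH) and 196 (METS). The sum was 0.896-fold of DLD1 in SA (0.822 to 0.977, but up to 1.002 with TMM factors), 1.58-fold in SPH (1.47 to 1.71) and 1.30-fold in METS (1.20 to 1.41). None of the 6 regions passed 2-fold either way with 0.5 CPM added. Of all H3K79me3 regions with a count, 1.09% were higher in SA, 3.07% in SPH and 7.22% in METS. Those lower were 2.32% in SA, 5.17% in SPH and 2.08% in METS.

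Ratios as large as those of the first region of the gene were also seen at other strong regions. In the 1562 H3K79me3 regions that make up the strongest 1% by mean CPM, the median log2 ratio to DLD1 was -0.05 in SA, 0.13 in SPH and -0.14 in METS. SOX9's first region, at 0.98 in SPH and 0.76 in METS on the same scale, was matched or exceeded by 5.51% and 6.27% of them. Over all H3K79me3 regions with a count the shares were 3.29% and 13.5%.

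H3K27me3 over the SOX9 body was sparse in every line. The interval at chr17:70117161-70122561 had 17 counts (DLD1), 14 (SA), 9 (SPH) and 20 (METS). Per kb these were 0.202, 0.137, 0.0816 and 0.183 CPM, below the medians of the 31167 intervals of 1 kb or more, which were 0.320, 0.280, 0.289 and 0.306. SPH was the lowest line, at percentile 3.59 of those intervals, and DLD1 was at percentile 28.2. SPH lay 2.47-fold below DLD1, with an interval of 1.04 to 6.29. With TMM or DESeq2 factors the SPH level was 0.439-fold of DLD1 with an interval that spans 1 (0.173 to 1.04). The intervals for SA (0.680-fold, 0.310 to 1.47) and METS (0.905-fold, 0.450 to 1.84) span 1, so a difference was not detectable at this depth.

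The 184.5-kb interval at chr17:70033455-70217977, which encloses SOX9, had 958 counts (DLD1), 1020 (SA), 1238 (SPH) and 1355 (METS). Per kb it had 0.333, 0.293, 0.329 and 0.362 CPM, near the table medians. The interval at chr17:70068474-70089622 is 21149 bp long, the length RefSeq gives for LINC02097, and had 111, 142, 169 and 170 counts. Per kb the SOX9 body was below both of these intervals in all 4 lines. The larger interval contains the smaller one and SOX9, so their counts are not independent.

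Beyond SOX9, the 317.3-kb interval at chr17:70319264-70636611 encloses the run. It had 1287 counts (DLD1), 1342 (SA), 1740 (SPH) and 1460 (METS), or 0.260, 0.224, 0.269 and 0.227 CPM per kb. SA and METS were the low lines, at 0.861-fold (0.797 to 0.931) and 0.873-fold (0.809 to 0.941) of DLD1, and SPH was at 1.03-fold (0.961 to 1.11). With TMM factors the SA interval spans 1 (0.879 to 1.03), and the SPH interval lies above it (1.04 to 1.21). Inside it, chr17:70339081-70351277 had 62, 62, 85 and 86 counts, chr17:70422080-70424993 had 9, 6, 5 and 17, and chr17:70623370-70623763 had 7, 4, 13 and 4. Beyond it, chr17:70638870-70640629 had 20, 14, 20 and 12 counts. The last interval, chr17:70642088-71088851, follows in the place of SLC39A11, a zinc transporter gene, and had 2381, 2481, 2985 and 3143 counts.

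None of the 9 H3K27me3 intervals passed 2-fold with 0.5 CPM added, where 0.817% of all intervals with a count passed in SA, 2.15% in SPH and 1.27% in METS. Both mesenchymal lines lay below both epithelial lines in 4 of the 9 intervals, SOX9 among them, against 26.1% of all intervals. They lay above in 0 of 9, against 11.9%. With 9 partly nested intervals and low counts in several, these counts are only a description.

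**Figure D3:**
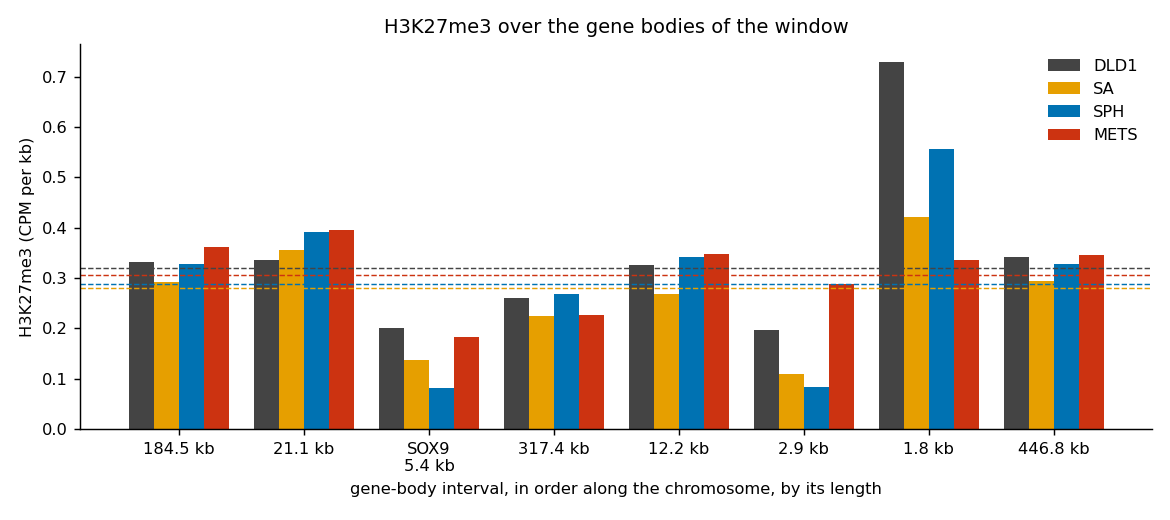
H3K27me3 in CPM per kb for the 8 gene-body intervals of at least 1 kb, in order along the chromosome and named by length, with bars from 0 for 1 library per line and dashed lines at each line's median over 31167 intervals. The SOX9 bars lie below the dashed line of their own line in all 4 lines, with SPH lowest at 0.0816.

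Over the downstream noncoding run, H3K79me3 was highest in METS. The 202 regions, 122 to 567 bp long, summed to 6964 counts (DLD1), 7538 (SA), 4720 (SPH) and 12901 (METS). Over the 76.4 kb that they cover, this was 12.1 CPM per kb (DLD1), 13.6 (SA), 10.0 (SPH) and 26.3 (METS). METS stood far above the other 3 lines, SA slightly above DLD1, and SPH lowest. Against DLD1 the run was 2.17-fold in METS (2.10 to 2.23), 1.12-fold in SA (1.08 to 1.16) and 0.827-fold in SPH (0.797 to 0.858). METS was 2.62-fold above SPH (2.53 to 2.71) and 1.94-fold above SA (1.88 to 1.99).

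By library totals METS was nearest to SPH at SOX9 and farthest from it over the run. The nearness at SOX9 depended on the scaling. With TMM factors METS was at 1.23-fold of DLD1 there and SPH at 1.70-fold, so METS was then nearest to DLD1. In SPH the 2 places lay on opposite sides of DLD1, with SOX9 at 1.58-fold and the run at 0.827-fold. In METS both were above DLD1, at 1.30-fold and 2.17-fold. In SA they were at 0.896-fold and 1.12-fold. Per kb, the 6 SOX9 regions were still far denser than the run in every line, from 56.0 CPM per kb in SA to 99.0 in SPH.

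METS also lay above DLD1 in most single regions. These are neighbours in 1 library per line, not replicates, and the run was chosen with these values known. The counts below are therefore only a description. The METS fold against DLD1 had a median of 2.14 and ran from 0.518 to 6.55. METS lay above DLD1 in 195 of 202 regions, against 56.1% of all H3K79me3 regions, and below in 7, against 43.6%. Its interval was wholly above 1 in 151 (12.1% of all regions) and wholly below 1 in 2 (9.41%). SA had a median of 1.11 and lay above DLD1 in 128 regions (48.1% of all). SPH had a median of 0.798 and lay below DLD1 in 153 (58.3% of all). The order METS, SA, DLD1, SPH occurred in 83 regions and METS, DLD1, SA, SPH in 47. Shares of these full orders over all H3K79me3 regions were not computed, so nothing is read from these counts.

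With 0.5 CPM added, 101 of 202 regions had METS 2-fold or more above DLD1, where 7.22% of all H3K79me3 regions with a count passed. None was 2-fold lower in METS, against 2.08%. The run was chosen with these values known, and nothing is read from the distance to that background. The count in METS was 67 with 2 CPM added (1.37% of all regions) and 158 at a 1.5-fold threshold (20.1%). In SPH, 17 regions were 2-fold lower (8.42% of the run, 5.17% of all regions) and 1 was higher (3.07% of all). With 2 CPM added, 1 region of the run was 2-fold lower in SPH, a share no higher than the 0.557% of all regions. In SA, 3 regions were 2-fold higher (1.09% of all) and 0 lower (2.32%).

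By rank, METS was the highest line in 185 regions of the run, 91.6% against 37.0% of all H3K79me3 regions. SPH was the lowest in 137, or 67.8% against 34.6%. Both mesenchymal lines lay below both epithelial lines in 63 regions, 31.2% against 20.3%, and above in 1, against 8.72% of all. These ranks too only describe a run chosen with its values known.

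**Figure D4:**
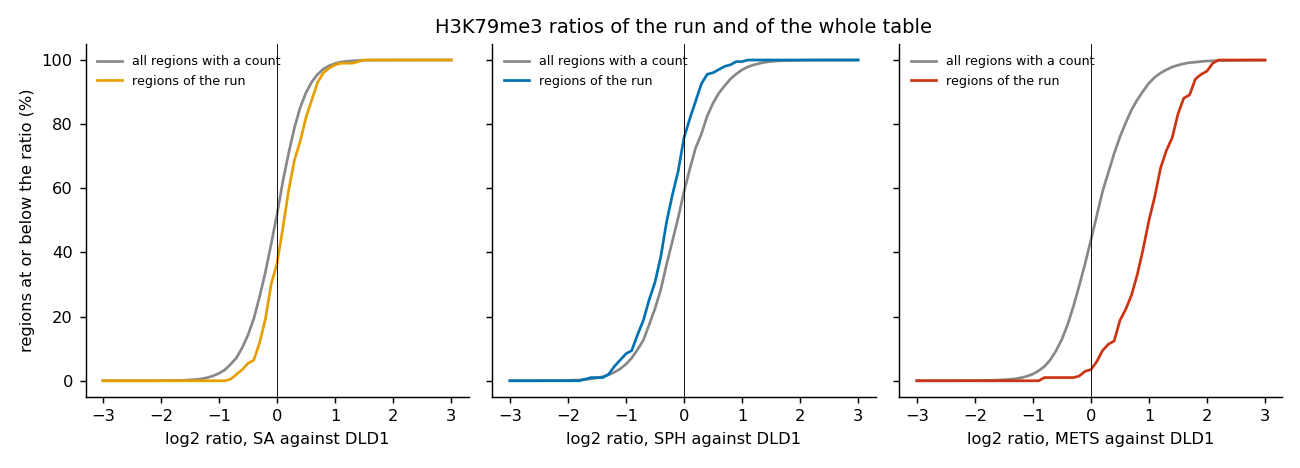
Cumulative share of H3K79me3 regions (percent) at or below each log2 ratio to DLD1, with 0.5 CPM added, for all 156120 regions with a count (grey) and the 202 regions of the run (colour), 1 panel per derivative. The METS curve of the run is shifted to the right, with a median of 1.002 against 0.08 in the table, while the SA curve (0.13 against -0.02) and the SPH curve (-0.28 against -0.11) lie closer to the grey curve.

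Along the run the METS difference was largest at the end away from SOX9, where the minus-strand LINC00673 would begin. With the span cut into 3 equal segments, in the segment farthest from SOX9 (77 regions) METS was 2.54-fold above DLD1 (2.43 to 2.66). In the middle segment (73 regions) it was 2.10-fold (1.997 to 2.22), and in the segment nearest SOX9 (52 regions) 1.60-fold (1.51 to 1.71). By 20-kb bins counted from the far end, METS was 2.50-fold in the first and 3.14-fold in the second. The next 6 bins lay between 1.93-fold and 2.31-fold. In the last 2 bins, nearest SOX9, it was 1.08-fold (0.966 to 1.20) over 16 regions and 1.39-fold (1.14 to 1.71) over 7. The former had 14.9 CPM per kb in DLD1 and 16.0 in METS, and only the latter was thinly filled. The 7 regions in which METS lay below DLD1 are all between 144 and 182 kb from the far end.

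SPH showed a different course. Its lowest bin was 100 to 120 kb from the far end, at 0.634-fold of DLD1 (0.545 to 0.736). In the 2 bins nearest SOX9 it was at 0.958-fold and 1.002-fold, with intervals that span 1. SA stayed between 0.940-fold and 1.22-fold of DLD1 in every bin. In level, the first 20 kb from the far end were the densest bin in all 4 lines, with 19.9 CPM per kb in DLD1 and 49.7 in METS.

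**Figure D5:**
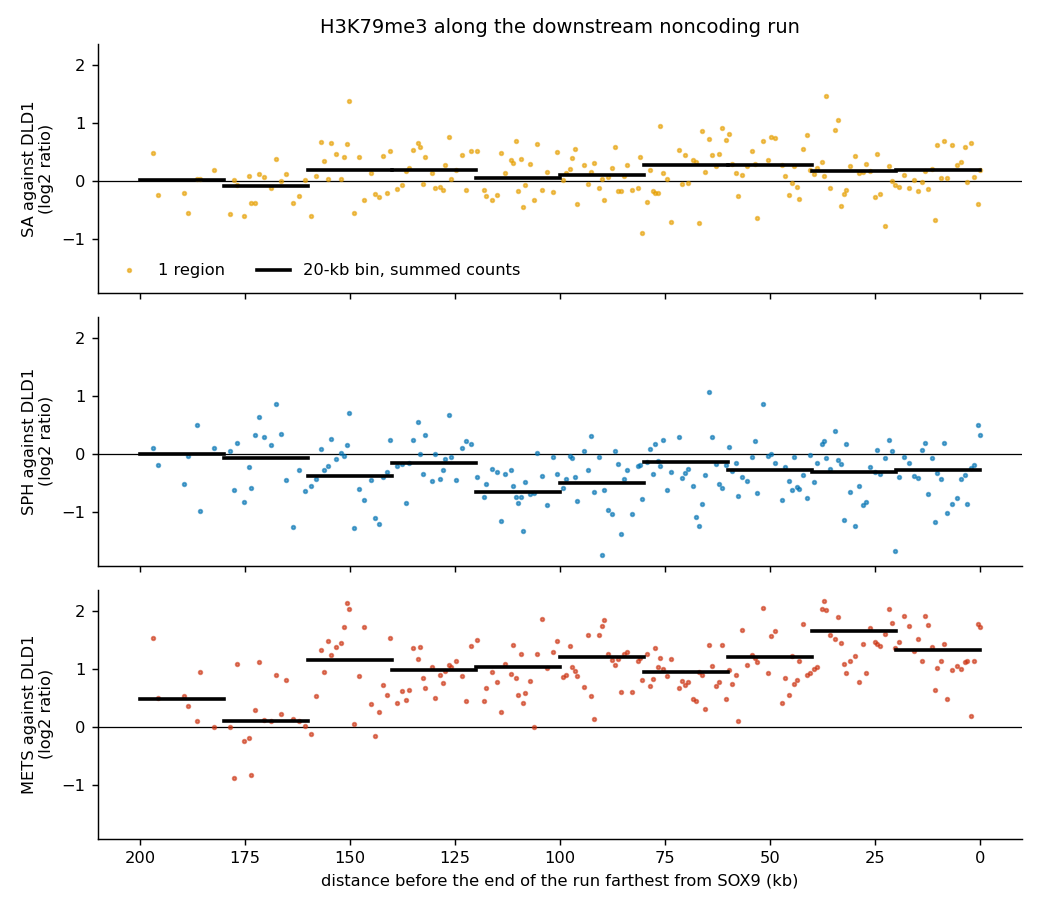
Log2 ratio to DLD1 of H3K79me3 in each region of the run, with 0.5 CPM added (points), and of summed counts in 20-kb bins (black lines, no added value), against distance in kb before the end farthest from SOX9, for SA, SPH and METS. METS bins lie near a log2 ratio of 1 or above over the first 160 kb, highest in the second bin (3.14-fold), and are lower in the 2 bins nearest SOX9 (1.08-fold, close to 0 on the log2 scale, and 1.39-fold).

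The strongest region of the run by mean CPM, chr17:70587684-70588108, lies at its far end. It had 100 counts (DLD1), 73 (SA), 117 (SPH) and 302 (METS). METS was 3.53-fold above DLD1 (2.81 to 4.47), SPH 1.43-fold (1.08 to 1.88), and SA was the lowest line. The last region of the run, chr17:70588393-70588799, had 70, 78, 73 and 205 counts, with METS at 3.42-fold (2.60 to 4.56). Between them in mean level stands chr17:70583678-70584207, which had 97, 119, 58 and 168 counts, with METS at 2.02-fold (1.57 to 2.63). In SPH it was the lowest of the 4 lines, unlike both regions at the end. Without the strongest region the METS sum of the run was 2.15-fold of DLD1.

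Regions with at least 20 counts over both lines were ranked by the log2 ratio to DLD1 after adding 0.5 CPM, which lowers the rank of weak regions. By CPM alone, weaker regions reached 6.55-fold in METS and 3.62-fold in SA. By that ranking METS was furthest above DLD1 at chr17:70551021-70551512, with 36 counts (DLD1), 37 (SA), 35 (SPH) and 150 (METS), a fold of 4.87 (3.37 to 7.22). It was furthest below at chr17:70410726-70411167, in the part nearest SOX9, with 79, 77, 41 and 35 counts (1.93-fold lower, 1.28 to 2.96). SPH was also low there. By the same ranking SA was furthest above DLD1 at chr17:70551867-70552168, with 13, 41, 10 and 55 counts (3.26-fold, 1.71 to 6.63), and METS was higher still. SA was furthest below at chr17:70565578-70566060, with 45, 24, 35 and 123 counts (1.81-fold lower, 1.08 to 3.11).

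SPH was furthest above DLD1 at chr17:70523894-70524326, where all 3 derivatives were above it, with 35, 58, 64 and 85 counts (SPH 2.23-fold, 1.46 to 3.47). It was furthest below at chr17:70498405-70498680, with 21, 21, 3 and 68 counts (5.74-fold lower, 1.71 to 30.0). The 3 counts in SPH make that ratio imprecise. At the edge of the run nearest SOX9, the first region inside, chr17:70391562-70391955, had 10, 15, 9 and 31 counts. The 2 regions just outside had 8, 15, 12 and 19 counts at chr17:70389492-70389893, and 11, 10, 1 and 14 at chr17:70381708-70382128. METS was the highest line in these 3 as well.

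Next to the window, the 570 kb before it held 0 H3K79me3 regions and the 570 kb after it held 8, at low levels. Their median log2 ratio in METS was 0.63, against 1.002 over the run and 0.12 over chromosome 17. For the 6 SOX9 regions the median was 0.46 in METS, 0.69 in SPH and -0.23 in SA.

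At the end of the run the promoter mark was lowest in SPH, but METS did not stand far above DLD1. H3K79me3 summed over the run was also lowest in SPH. In the strongest and the last H3K79me3 region of the run, SPH was instead above DLD1 in CPM, at 1.43-fold (1.08 to 1.88) and 1.27-fold (0.904 to 1.79). The H3K4me3 regions chr17:70587711-70588158 and chr17:70588438-70588869 overlap the strongest and the last H3K79me3 region of the run. The first had 459 counts (DLD1), 494 (SA), 386 (SPH) and 485 (METS), and the second 411, 490, 381 and 496. By CPM the highest line was DLD1 in the first (68.3 against 66.4 in METS) and METS in the second. Together they had 129 CPM (DLD1), 127 (SA), 107 (SPH) and 134 (METS). METS was at 1.04-fold of DLD1 (0.946 to 1.14), SA at 0.981-fold (0.894 to 1.08) and SPH at 0.829-fold (0.751 to 0.914). In DLD1 the first had 152 CPM of H3K4me3 per kb, against 189 for the strongest SOX9 region. H3K4me3 over the whole window (376 CPM in DLD1 and 355 in METS) and H3K27me3 over the run were not above DLD1 in METS, unlike H3K79me3 over the run.

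The other 15 H3K4me3 regions outside SOX9 had only 1.68 to 10.8 CPM. Their sum was 71.4 CPM (DLD1), 66.4 (SA), 82.3 (SPH) and 57.1 (METS). SPH was the high line, at 1.15-fold of DLD1 (1.02 to 1.30), and METS the low one, at 0.800-fold (0.700 to 0.914). The 1 region past 2-fold in SPH, chr17:70418669-70419086, is one of these, at 2.40-fold of DLD1 by CPM (1.37 to 4.40). Both mesenchymal lines lay above both epithelial lines in 4 of the 22 H3K4me3 regions (20.7% of all regions) and below in 2 (21.0%), none of them at SOX9. All 17 regions outside SOX9 summed to 0.963-fold of DLD1 in SA, 0.944-fold in SPH and 0.953-fold in METS.

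Outside the window, the features nearest to SOX9 in their course over the 4 lines were looked up by the distance between log2(CPM + 0.5) values centred on each feature's mean. Candidates had a mean CPM within 2-fold. For the strongest SOX9 H3K4me3 region the nearest of 8919 were chr17:37793403-37793827, chr3:49058369-49058835 and chr14:60716026-60716420, at distances of 0.0278, 0.0286 and 0.0294 against a median of 0.286. The nearest had 476 counts (DLD1), 590 (SA), 427 (SPH) and 481 (METS), also highest in SA and lowest in SPH by CPM. For the SOX9 H3K27me3 interval the nearest of 8877 were chr10:49363368-49364177, chr1:150488233-150490508 and chr19:19623227-19626838. The first of these had 11, 8, 4 and 12 counts, and at such counts the likeness is within counting error. With 4 libraries to compare, these are descriptions only.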

How the data were processed

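The authors deposited 1 table per library with unnormalized counts of reads in regions: the values are whole numbers over the same regions in the 4 lines of a mark, with different totals. The build is hg19 per the submitters' processing notes. Precipitation and library preparation used a Diagenode kit per the labels. The aligner, the region caller, the counter and any input control are not given in the sources used here. The H3K27me3 table states that 7773 entries were skipped, so its totals cover only the part held. Titles of the derivatives call them parental too, and the descriptions were used to tell the lines apart.

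Counts were divided by the library total to give CPM. A fold is the CPM of a line over that of DLD1, and its Clopper-Pearson interval is conditional on the summed count. Calls used log2 ratios after adding 0.5 CPM, and a 2-fold threshold. The background shares use all regions with a count in any line. Alternatives were TMM factors (edgeR 4.0.16, R 4.3.3), DESeq2 1.42.0 size factors, totals of chromosome 17, other added values and thresholds, and a narrower margin. edgeR and DESeq2 gave scaling factors only, and no p-value was computed. Scripts were tested on simulated data and used Python 3.11.15, NumPy 2.4.6, pandas 2.3.3, SciPy 1.17.1 and matplotlib 3.10.9.

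The members and lists were chosen with earlier results of these data known. Named in the run are the 3 regions with the highest mean and, per derivative, the regions furthest above and below DLD1 with 20 or more counts over both lines. The SOX9 sets of first and last regions and the strongest 1% of regions were chosen after the values were seen.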

Additional observations from a re-analysis of the deposited data

How the results depend on the processing

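Of 97 alternatives computed for these results, 72 kept the value within its counting interval or the count within 1.5 times, and 25 did not. None turned a direction against DLD1: all 63 alternative folds stayed on the same side of 1, with a largest change of 10.4%. The line nearest to METS at SOX9 in H3K79me3 did change, from SPH to DLD1 with TMM factors or DESeq2 size factors. The narrower margin kept the same H3K4me3 regions at SOX9, so those folds could not change and are no check. Whether the counting interval spans 1 changed with TMM factors for SA at SOX9 in H3K79me3 (0.843 to 1.002), SPH at SOX9 in H3K27me3 (0.173 to 1.04), both SA and SPH in H3K27me3 over the run, and SPH in H3K4me3 outside SOX9 (0.857 to 0.998). Against library totals, DESeq2 size factors shifted every H3K79me3 log2 ratio of SPH by 0.13 and TMM factors by 0.11, while chromosome 17 totals shifted it by -0.11. For H3K27me3 the TMM shift was 0.14 in SA and 0.12 in SPH.

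SPH at SOX9 in H3K79me3 was 1.73-fold with DESeq2 size factors. Over the run, H3K79me3 in SPH was 0.890-fold with TMM factors, 0.905-fold with DESeq2 size factors and 0.766-fold with chromosome 17 totals. METS was 2.04-fold with TMM factors and 2.03-fold with DESeq2 size factors, and SA was 1.16-fold with chromosome 17 totals. In the H3K27me3 interval over the run, SA was 0.9499-fold with TMM factors and 0.951-fold with DESeq2 size factors, and SPH was 1.12-fold with either. With 0.1 CPM added, the run counts past 2-fold were 7 higher (3.57% of all regions) and 1 lower (5.87%) in SA and 2 higher (5.62%) in SPH. With 2 CPM added they were 1 higher in SA (0.0487% of all), 0 higher (0.908%) and 1 lower (0.557%) in SPH, and 67 higher in METS (1.37%). At 1.5-fold they were 28 higher (7.18% of all) and 8 lower (10.9%) in SA, 6 higher (10.8%) and 53 lower (18.1%) in SPH, and 158 higher (20.1%) and 2 lower (9.89%) in METS. Mesenchymal lines above epithelial lines numbered 3 with TMM factors (13.8% of all). The cause was not tested, beyond the added value or threshold itself.

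No paired analysis was possible because each line had 1 library per mark; leaving out a library was not run. Depth limits regions and short H3K27me3 intervals with few counts most, whatever the mark, and least the long H3K27me3 intervals. How the region sets were made is not given in the sources used here.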
